A study of Homo sapiens with 12 samples.

Results

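The comparison described here set 3 samples of GLI2 KO cells against 3 samples of WT cells, all 6 held in DMSO without drug, and covered all 21974 genes that could be tested of the 25049 in the deposited table. The 6 samples were taken from the 12 of the series by their labels for genotype and treatment. The other 6, of the same 2 genotypes, had received 50 nM paclitaxel, a microtubule-stabilising taxane, and are used only to see whether a difference recurs in libraries that did not define it. DMSO is the solvent of that drug, and exposure lasted 2 days in both arms. Every sample came from MDA-MB-231b, a bone-tropic derivative of the established triple-negative breast cancer line MDA-MB-231, made by passing cells through the tibia and then the circulation of athymic nude mice and recovering them from bone marrow. Both genotypes had gone through lentiviral CRISPR-Cas9: GLI2 KO cells carried a guide RNA against GLI2, and the cells labelled WT a non-targeted guide. The labels do not say whether the GLI2 KO cells are 1 clone or a mixture, nor that the 3 samples of a group were separate cultures. P-values therefore measure only how far these samples spread, in part perhaps for technical reasons, and effects of the guide cannot be told apart from other differences between the 2 cell populations.

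GLI2 is a zinc-finger transcription factor at the end of the Hedgehog pathway. Without ligand, PTCH1 holds SMO inactive, and SUFU together with kinases such as PKA and GSK3B keeps GLI proteins in the cytoplasm or directs their processing. Signalling releases them to activate targets such as GLI1, PTCH1 and HHIP. In bone-metastatic breast cancer cells GLI2 is also known as a factor downstream of TGF-beta that raises PTHLH, the parathyroid hormone-related peptide that drives bone resorption through osteoclasts. A difference between 2 cell populations of a cancer line can also be shared by long runs of neighbouring genes, so each gene was read both against WT and against its neighbours on the chromosome.

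Total counts lay between 83648473 and 109018776 in the 6 DMSO samples, with 23712 to 24125 genes detected and 3.99% to 4.69% of counts from the mitochondrial genome. Within a genotype the counts of different samples differed by more than sampling noise, which does not show that they came from separate cultures. GLI2 KO replicate 3 and WT replicate 2 stood farthest from the other samples of their groups: the chi-square per degree of freedom was 13.7 and 17.9 for the pairs with GLI2 KO replicate 3 and 3.70 for the other pair, and 11.4 and 8.44 for the pairs with WT replicate 2 against 3.38. VIM and CD44, markers of a mesenchymal-like profile, were at similar levels in both genotypes. Other mesenchymal, epithelial and luminal genes differed, as described below. VIM, the intermediate filament of mesenchymal cells, was at 2923 CPM (counts scaled to library size and composition) in WT and 2844 CPM in GLI2 KO, and CD44, a surface glycoprotein of the same profile, at 257 and 257 CPM. Haematopoietic and endothelial markers were low, but some kidney and fibroblast markers lay above the median of 4.46 CPM over all genes tested. The kidney marker SIX2 was at 12.1 CPM in WT and 13.9 CPM in GLI2 KO. Of the fibroblast markers, COL1A1 fell from 7.99 to 6.45 CPM and PDGFRB rose by 1.30 on the log2 scale. The summed level of the 6 tested haematopoietic markers of 12 was 0.779 to 0.928 CPM in WT and 1.12 to 1.59 CPM in GLI2 KO, that of the 5 tested endothelial markers of 9 was 2.38 to 2.99 and 1.21 to 1.66 CPM, and that of the 4 tested fibroblast and osteoblast markers of 12 was 11.3 to 13.2 and 14.8 to 20.1 CPM. The 2 tested kidney and packaging-cell markers of 9 summed to 13.9 to 15.1 and 15.6 to 16.8 CPM. The remaining listed markers were not among the genes tested, and the part of such cells in the differences was not tested.

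GLI2 itself (chr2:120735623-120992653 on GRCh38, plus strand) was measured at 10.4, 11.4 and 10.6 CPM in WT and 9.28, 8.23 and 10.1 CPM in GLI2 KO. The groups did not overlap, yet the difference was small. The mean dropped by 14.6%, a log2 fold change of -0.23 ± 0.08 (standard error) with an adjusted p of 0.0253 in edgeR's quasi-likelihood test and an exact two-sided permutation p of 0.1, the smallest that 3 samples against 3 allow. The call was lost without GLI2 KO replicate 1 (-0.23, adjusted p = 0.0577), without GLI2 KO replicate 2 (-0.15, adjusted p = 0.183) and without WT replicate 2 (-0.19, adjusted p = 0.110). The genes around GLI2 had a median of -0.12, which leaves -0.11 for GLI2 relative to them. In paclitaxel the log2 difference was -0.44 ± 0.09 (adjusted p = 2.43e-04 in the same quasi-likelihood test). There GLI2 was at 6.42, 5.65 and 4.97 CPM in WT and 3.97, 4.14 and 4.39 CPM in GLI2 KO. A guide that disrupts the reading frame need not lower the transcript, and no protein measurement was part of these data.

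Many genes differed between the 2 populations, most by little. Of the 21974 genes tested, 9139 (41.6%) passed at an adjusted p under 0.05: 4826 (22%) were higher in GLI2 KO and 4313 (19.6%) lower. The median size was 0.34 on the log2 scale for the higher genes and 0.32 for the lower ones, while the median of all genes tested was 0.01 with quartiles at -0.20 and 0.23. At a log2 difference of at least 1, 911 genes were higher and 568 lower, and at least 3 was reached by 182 and 53. The 3 GLI2 KO values and the 3 WT values did not overlap in 10681 genes (48.6%), so a lack of overlap is common here and is given below as a description. With so many calls, a list of genes has to be read against these shares. Among the better-expressed genes used below as neighbours, 29.7% were higher and 26.8% lower.

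To separate differences that a gene shares with its neighbours, each gene was given a local median: the median log2 fold change of the 25 genes before and the 25 after it on its chromosome, counting only the 13138 genes whose mean reached 1 CPM and whose position was known. A block was a run of at least 25 such genes whose local medians had 1 sign and a size of at least 0.2. Called genes were then sorted into 3 classes. A single-gene difference lay at least 1 (log2) beyond its local median in the direction of the call, and 816 genes higher and 504 lower met this. These are 3.93% and 2.43% of the 20760 genes with a local median. A neighbour-shared difference lay in a block, had its sign and came within 0.5 of the local median, which held for 641 higher and 407 lower genes. The remaining 6771 called genes (74.1%), of which 242 had no local median, were mostly small differences outside blocks.

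There were 15 blocks, 7 higher and 8 lower in GLI2 KO, with 1438 genes and 328 Mb in all. Within a block most genes differed in 1 direction: 1284 of 1438 (89.3%) had the sign of their block, 1146 passed the test with that sign and 93 passed against it. These counts follow partly from the definition, which used the same fold changes, so they carry no test. Blocks lay on 10 of the 23 chromosomes examined. On the 13 others local medians stayed between -0.13 and 0.20.

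**Figure D1:**
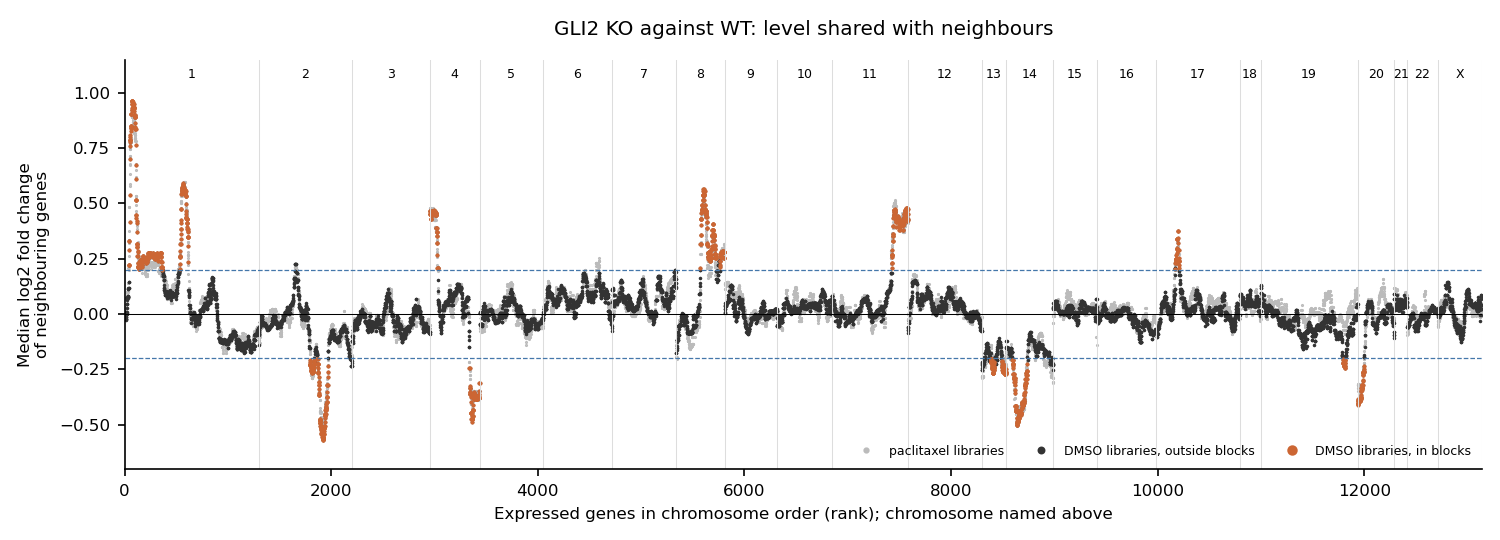
Local median of the log2 fold change, GLI2 KO against WT (y axis), for the 13138 genes at 1 CPM or more in chromosome order (x axis, rank). Black and orange points are the DMSO libraries outside and inside the 15 blocks, grey points the paclitaxel libraries and dashed lines mark 0.2 in size; the plateaus of the DMSO libraries recur in the paclitaxel libraries.

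The block with the most genes covered the short arm of chromosome 1 from 2.18 to 39.97 Mb and held 322 genes. It had a step inside it. Its first 41 genes, from 2.18 to 8.82 Mb, had a median of 0.92, and the next 41, from 8.86 to 15.59 Mb, a median of 0.89. The step lay within that second set: CLCN6, a chloride transporter, was at 1.03, and the genes that follow it were lower, such as KIAA2013 at 0.16, the mitochondrial fusion gene MFN2 at 0.41 and PRDM2 at 0.29, all named after their values were seen. From 15.62 Mb to the end, medians of successive sets of 40 genes lay between 0.21 and 0.28. ENO1, the glycolytic enzyme enolase, lies in the first stretch and was measured at 1411, 1352 and 1396 CPM in WT and 3077, 3038 and 2854 CPM in GLI2 KO. All 3 GLI2 KO values were above all WT values, a log2 difference of 1.11 ± 0.04 against a local median of 0.93. PGD, an enzyme of the pentose phosphate pathway, rose by 1.01 ± 0.03 there, and RPL22, a ribosomal protein of the large subunit, by 0.65 ± 0.04. Farther along, the cytoskeletal crosslinker MACF1 rose by 0.31 ± 0.03, while the ribosomal protein gene RPL11 (0.08 ± 0.05, adjusted p = 0.195) and the splicing factor gene SFPQ (-0.04 ± 0.04, adjusted p = 0.445) did not pass. TP73, a p53-family transcription factor, lies in the first stretch too and exceeded it: it was at 0.715, 0.745 and 0.949 CPM in WT and 6.76, 6.13 and 6.73 CPM in GLI2 KO, a difference of 3.03 ± 0.11 against a local median of 0.79.

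**Figure D2:**
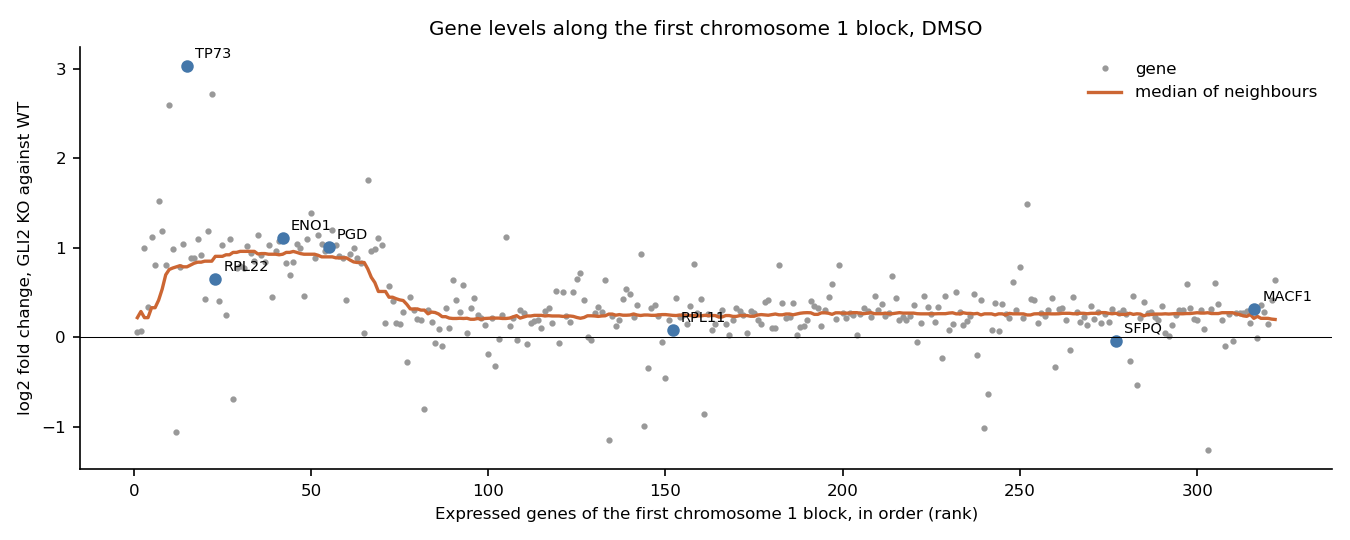
Log2 fold change of each of the 322 genes of the first chromosome 1 block in DMSO (y axis) in gene order (x axis, rank), with the local median as a line. The line is high over the first part, then steps down to a long, lower plateau; TP73 stands above its neighbours and SFPQ below them.

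Replicates held closely together. For the block at 71.06 to 94.32 Mb of chromosome 1 (85 genes), the per-sample level, which is the median over its genes of the log2 CPM minus the WT mean, was 0.52, 0.54 and 0.52 in the GLI2 KO libraries and between -0.003 and 0.012 in WT. That block holds CCN1, a matricellular YAP target, at 1125 CPM in WT and 1743 CPM in GLI2 KO. Chromosome 11 from 102.11 to 134.38 Mb (158 genes, median 0.44) held APLP2, an amyloid-precursor-like membrane protein (0.67 ± 0.03), RPS25, a small-subunit ribosomal protein (0.43 ± 0.04), HYOU1, an endoplasmic reticulum chaperone (0.68 ± 0.05), and CDON, a Hedgehog co-receptor (0.55 ± 0.04). HSPA8, the constitutive HSP70 chaperone, was at 0.23 ± 0.12 (adjusted p = 0.184) and TMEM123, a membrane protein, at -0.01 ± 0.03 (adjusted p = 0.857), and both failed to pass with their neighbours. On chromosome 8, the stretch from 79.76 to 134.71 Mb (152 genes) had a median of 0.43 and the end from 143.79 to 145.07 Mb (46 genes) a median of 0.28. RAD21, a cohesin subunit, and RPL30, a ribosomal protein, rose there by 0.43 ± 0.03 and 0.47 ± 0.05, the poly(A)-binding protein gene PABPC1 fell by 0.17 on the log2 scale, and the adaptor gene YWHAZ was at 0.06 ± 0.03 (adjusted p = 0.108, and 0.0422 without WT replicate 2). The other higher blocks were on chromosome 4 from 0.05 to 13.55 Mb (77 genes, median 0.46) and on chromosome 17 from 17.04 to 20.32 Mb (38 genes, median 0.41), the latter with SREBF1, which encodes the lipogenic transcription factor SREBP-1.

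Lower blocks ran along chromosomes 2, 4, 13, 14, 19 and 20. Chromosome 2 had a pair. The first, from 121.74 to 144.33 Mb (45 genes, median -0.26), began 744 kb past the end of GLI2, and held MCM6, a subunit of the replicative helicase (-0.57 ± 0.03). The second, from 160.27 to 189.48 Mb (103 genes, median -0.48, quartiles -0.62 and -0.15), held HNRNPA3, an RNA-binding protein (-0.61 ± 0.04), the stress kinase MAP3K20 (-0.91 ± 0.03), NCKAP1 of the actin-regulating WAVE complex (-0.42 ± 0.03), and SSB, the La protein (-0.50 ± 0.03). NFE2L2, which encodes the antioxidant regulator NRF2, also lies there and was at 143, 139 and 143 CPM in WT and 106, 106 and 96.7 CPM in GLI2 KO, with no overlap. Chromosome 14 from 24.19 to 59.37 Mb (144 genes, median -0.40) held KTN1, a kinesin anchor (-0.36 ± 0.03), FRMD6 of the Hippo pathway (-0.63 ± 0.03), the glycogen phosphorylase PYGL (-0.57 ± 0.03) and the splicing-associated PNN (-0.58 ± 0.04). The end of chromosome 4 from 145.76 to 189.96 Mb (98 genes, median -0.39) held the ribosomal protein gene RPS3A at 805 CPM in WT and 425 CPM in GLI2 KO (-0.92 ± 0.04) and the chromatin protein gene HMGB2 (-0.62 ± 0.05). There, the cadherin FAT1 (-0.06 ± 0.04, adjusted p = 0.209) and the sterol oxidase MSMO1 (-0.06 ± 0.05, adjusted p = 0.463) did not pass, although without GLI2 KO replicate 3 they were at -0.09 (adjusted p = 0.0494) and -0.13 (adjusted p = 0.00538). Chromosome 20 from 0.27 to 10.43 Mb (63 genes, median -0.36) held PCNA, the replication clamp (-0.23 ± 0.03), and CDC25B, a mitotic phosphatase (-0.24 ± 0.04). Chromosome 13 had 2 short blocks, from 42.89 to 50.72 Mb (38 genes, median -0.23) and from 102.60 to 114.34 Mb (44 genes, median -0.24), and chromosome 19 had 25 genes from 52.39 to 53.43 Mb with a median of -0.28.

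Because the DMSO fold changes chose the blocks, the paclitaxel libraries are the measurement that did not use them. All 15 blocks had the same sign there, and in all 15 the 3 GLI2 KO samples lay apart from the 3 WT samples. Each block had an exact two-sided permutation p of 0.1, the smallest this design allows, so none could pass 0.05. Medians were close to those in DMSO: 0.27 for the first chromosome 1 block, 0.54 for the second, 0.45 for chromosome 4, 0.35 for the long chromosome 8 block, -0.40 for the second chromosome 2 block and -0.40 for chromosome 14. The chromosome 19 block moved most in proportion, from -0.28 to -0.13. Within a block the 3 GLI2 KO samples spanned at most 0.07 in DMSO. The number of gene copies was not measured, and its part in these blocks was not tested.

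**Figure D3:**
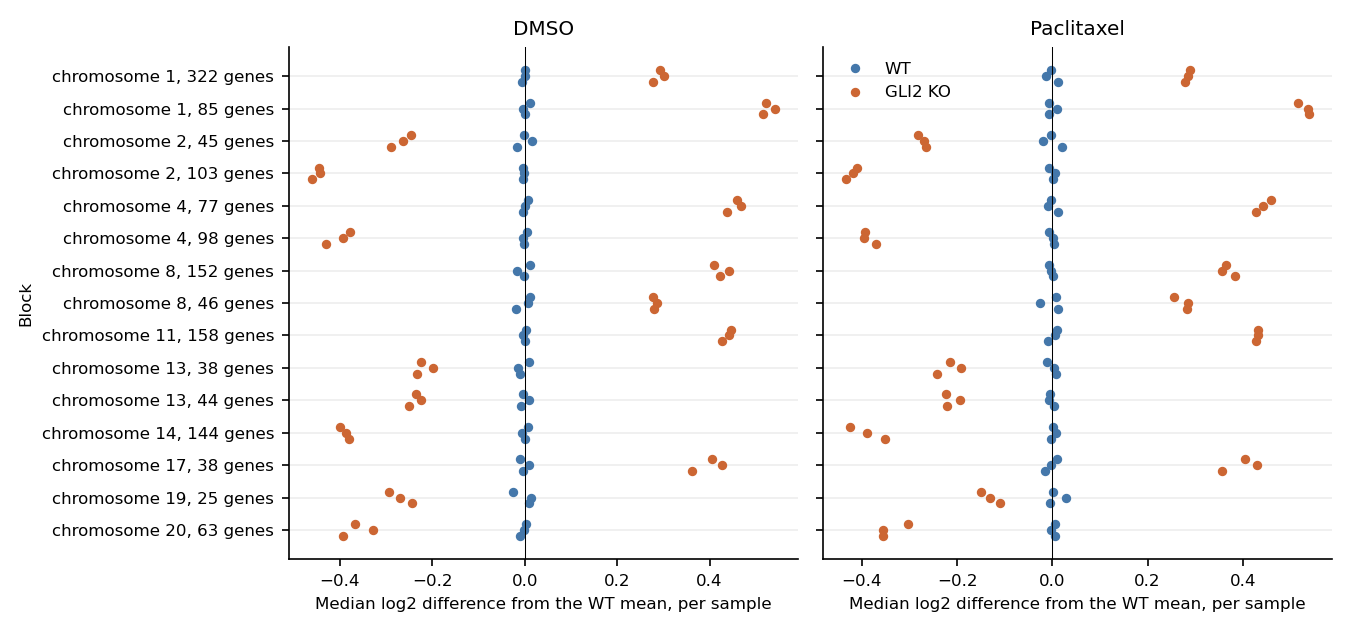
Per-sample level of the 15 blocks (x axis: median over the block's genes of log2 CPM minus the WT mean of the same treatment) in DMSO, left, and paclitaxel, right, with 1 point per library and blocks in chromosome order on the y axis. WT libraries lie near 0 and the 3 GLI2 KO libraries of each block lie together on 1 side in both treatments; in DMSO this follows from the choice of blocks.

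Single-gene differences were those that went beyond the local median, although the gene next door could still share them. Most were in genes of low expression: the median level in the higher group was 0.467 CPM for the 816 higher and 0.549 CPM for the 504 lower genes, against a median of 4.46 CPM over all genes tested. At least 5 CPM in the higher group was reached by 121 and 69. Of the 816 and 504, 50 and 17 were counted in a block. Only the better-expressed genes used as neighbours could be counted there. Weaker genes inside the span of a block, such as MMP1, MMP3 and MMP10 on chromosome 11, were left out. The number of single-gene differences within these spans is therefore not known from this count. Protein-coding genes made up 73.8% of the higher and 62.9% of the lower set, and 68.5% of all tested genes with a position.

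Among the better-expressed single-gene rises, SESN3, a sestrin that restrains mTORC1, was at 0.280, 0.305 and 0.169 CPM in WT and 5.04, 4.99 and 6.80 CPM in GLI2 KO, a log2 difference of 4.47 ± 0.21. No GLI2 KO value came near a WT value. Its expressed neighbours were ENDOD1, 75.7 kb before it by start position, at 0.10 ± 0.04, and FAM76B, 603 kb after it, at 0.09 ± 0.04 (adjusted p = 0.0907). SIGLEC15, a sialic acid-binding receptor known from osteoclasts, was at 0.454, 0.342 and 0.440 CPM in WT and 8.52, 9.06 and 8.34 CPM in GLI2 KO (4.37 ± 0.12), and again the groups were far apart. EPG5, which starts 22.1 kb beyond it and encodes an autophagy tether, was at -0.09 ± 0.04. The tested gene directly before it, the urea transporter gene SLC14A1, also rose, from 0.119 to 0.292 CPM (1.28 ± 0.31), and the nearest gene on that side at 1 CPM or more, the lipid kinase gene PIK3C3, is 3870.3 kb away and was at 0.01 ± 0.03 (adjusted p = 0.847). The small GTPase gene RAB17 was at 0.734, 0.794 and 0.813 CPM in WT and 7.65, 7.70 and 15.4 CPM in GLI2 KO (3.72 ± 0.35), with the third GLI2 KO library above the others. DSC2, a desmosomal cadherin, rose from 1.06 to 9.48 CPM (3.17 ± 0.12), MAP2, a microtubule-associated protein of neurons, from 0.562 to 5.62 CPM (3.31 ± 0.14), and PRKG1, the cGMP-dependent kinase, from 0.566 to 6.07 CPM (3.40 ± 0.13). GBP2, an interferon-inducible GTPase inside the second chromosome 1 block, rose by 3.49 ± 0.19 against a local median of 0.54. NHSL2, the antisense RNA TMEM132D-AS1, SH3BGRL2, the basement-membrane protein gene FREM2 and FRY completed the 12, with log2 differences of 3.70, 3.43, 3.16, 2.78 and 2.76. In each of the 12 the 3 GLI2 KO values lay above the 3 WT values, as the choice of named genes required. Of the 24 named rises and falls, 4 (SIGLEC15, RAB17, UCA1 and PPP4R4) lay next to another single-gene difference of the same direction.

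Some falls were as steep, though large falls were fewer than large rises. TRIM61, a tripartite-motif gene inside the lower block of chromosome 4, was at 6.35, 6.27 and 6.12 CPM in WT and 0.0256, 0 and 0 CPM in GLI2 KO. It had 1712 counts in the 3 WT libraries and 2 in the 3 GLI2 KO libraries, a ratio of 815 (exact 95% interval 225 to 6739, counting error only). Of its exon bases, 33.2% overlap another gene, and whether counting used strand is not known from the labels. SMIM31, 200 kb before it, rose from 1.08 to 5.78 CPM (2.41 ± 0.11). FAM218A, whose coordinates lie inside those of TRIM61, fell from 1.74 to 0.811 CPM (-1.10 ± 0.16), beyond its local median of -0.38. UCA1, a long non-coding RNA of carcinomas, was at 5.01, 6.72 and 5.66 CPM in WT and 0.141, 0.159 and 0.111 CPM in GLI2 KO (-5.39 ± 0.22). The tested gene next to it, the cytochrome P450 gene CYP4F11, fell with it, from 0.571 to 0.0346 CPM (-3.97 ± 0.39). The nearest genes at 1 CPM or more were WIZ, 408 kb before it (-0.08 ± 0.03, adjusted p = 0.0606), and TPM4, a tropomyosin, 239 kb after it (-0.08 ± 0.03). The small differences of ENDOD1, EPG5 and TPM4 passed narrowly and each lost its call when any of several libraries was left out, with adjusted p-values of up to 0.139, 0.400 and 0.164. GPAT2, a glycerol-phosphate acyltransferase, was at 33.6, 33.2 and 30.8 CPM in WT and 3.60, 3.22 and 3.39 CPM in GLI2 KO (-3.26 ± 0.06). The adhesion molecule L1CAM fell from 6.66 to 1.02 CPM (-2.70 ± 0.10), the granzyme B inhibitor SERPINB9 from 7.94 to 1.12 CPM (-2.82 ± 0.11), and the aldehyde dehydrogenase ALDH3A1 from 36.7 to 7.32 CPM (-2.31 ± 0.29). SLC22A31, ZNF727, GALNT12, PPP4R4 and IGFN1 fell by 3.18, 2.69, 2.75, 2.76 and 2.64 on the log2 scale.

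RPL22L1 had the highest WT level of the 12 named falls. It was at 220.2, 214 and 214 CPM in WT and 37.4, 38.6 and 33.7 CPM in GLI2 KO, with a wide gap between the groups and a log2 difference of -2.56 ± 0.04. Its paralog RPL22, in the first chromosome 1 block, was at 64.4, 62.3 and 62.1 CPM in WT and 99.1, 102 and 95.5 CPM in GLI2 KO (0.65 ± 0.04), higher in every GLI2 KO library. The 2 proteins occupy the same place in the ribosome, and RPL22 is known as a repressor of RPL22L1. In paclitaxel the 2 genes stood at -1.88 and 0.58. Whether the 2 differences are linked was not tested.

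**Figure D4:**
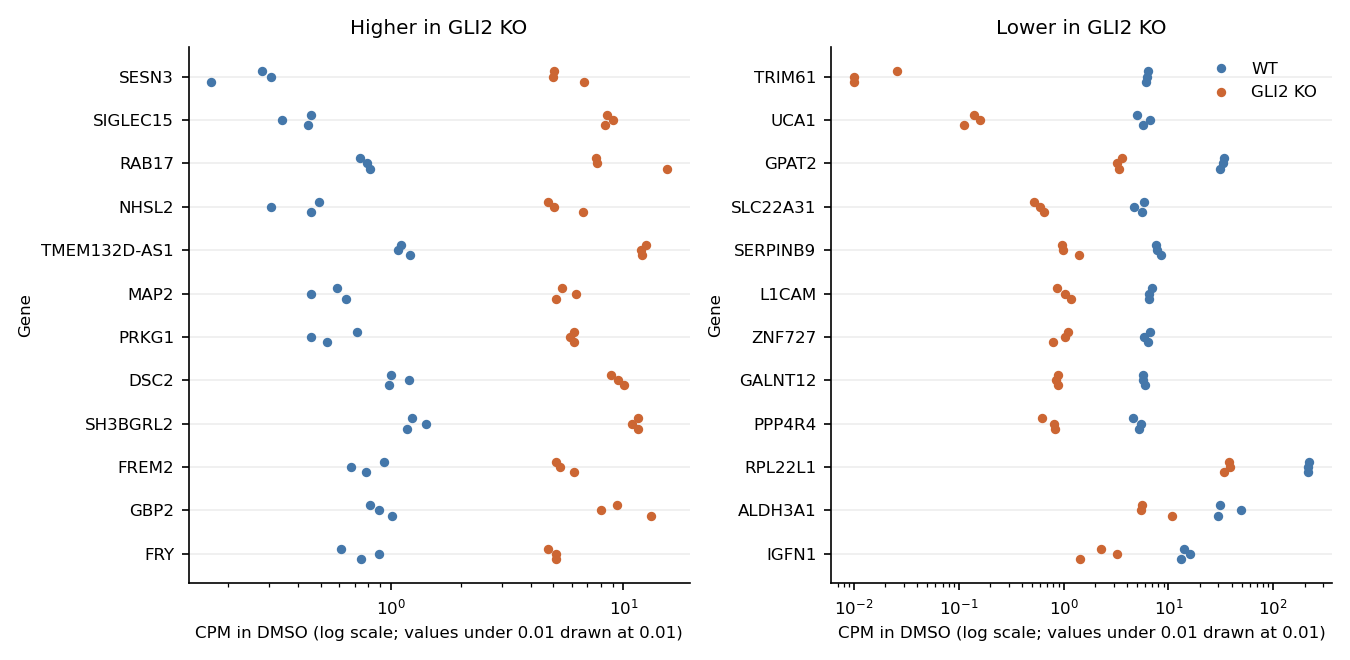
CPM in each of the 6 DMSO libraries (x axis, log scale, 1 point per library) for the 12 named single-gene rises, left, and the 12 falls, right. WT and GLI2 KO points do not overlap for any gene, which the choice required; TRIM61 in 2 GLI2 KO libraries is drawn at the left limit of 0.01.

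Some genes were nearly absent from 1 population. With at most 3 counts over the 3 WT libraries, 130 genes were called higher, and with at most 3 over the 3 GLI2 KO libraries 36 were called lower. The filter kept such genes only for their counts in other samples, and they could hardly be called the other way. How many tested genes had so few counts in a group was not counted, so 130 and 36 have no baseline. PGR, the progesterone receptor, had 1 count in WT and 640 in GLI2 KO (ratio 672, interval 120 to 26577). Its GLI2 KO values were 2.18, 2.29 and 2.98 CPM, all above WT. The pseudogene E2F6P4 had 1 and 711 counts (ratio 746, interval 134 to 29521), the adhesion molecule gene MPZL2 3 and 512 (ratio 179, interval 61.0 to 872), and CNTN1, a neuronal contactin, 1 and 163 (ratio 171, interval 30.3 to 6799). In the other direction, LINC02475 had 503 counts in WT and 0 in GLI2 KO, at least 160-fold lower against a floor of 3 counts over the group. The non-coding RNA PICSAR had 280 and 2 (ratio 133, interval 36.6 to 1107), and the zinc-finger gene ZNF730 199 and 3 (ratio 63.2, interval 21.3 to 309).

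Single-gene differences also lay side by side. Runs of adjacent genes that differed in the same direction numbered 103 among the rises, with 232 genes, and 46 among the falls, with 113. The 7 runs of 4 or more are named here after their values were seen. The longest were falls in the clustered protocadherins of chromosome 5, cell-surface cadherins expressed in combinations that tell neurons apart: 9 adjacent genes from PCDHB8 to PCDHB15 (median -1.96), 8 from PCDHGA2 to PCDHGA7 (-2.45) and 5 from PCDHGB6 to PCDHGA12 (-1.63). PCDHB8 was at 1.95, 2.21 and 2.09 CPM in WT and 0.654, 0.816 and 0.667 CPM in GLI2 KO, PCDHB13 at 1.82, 2.0 and 1.74 CPM in WT and 0.269, 0.125 and 0.256 CPM in GLI2 KO and PCDHGB1 at 3.16, 3.38 and 2.98 CPM in WT and 1.38, 1.07 and 1.14 CPM in GLI2 KO. Each had its GLI2 KO values below its WT values. The beta genes are close copies and the gamma genes share their last exons, so counts of single members are uncertain. Among the rises were S100A5, S100A4, S100A3 and S100A2, calcium-binding proteins of chromosome 1 (median 1.63). S100A4, a marker of mesenchymal and metastatic cells, was at 1.74, 1.86 and 2.12 CPM in WT and 5.85, 6.0 and 8.57 CPM in GLI2 KO, and S100A2 at 5.65, 5.27 and 4.89 CPM in WT and 13.5, 12.7 and 15.9 CPM in GLI2 KO. MMP10, MMP1, MMP3 and MMP13, secreted matrix proteases on chromosome 11, had a median of 3.19 at low levels, with MMP1 at 0.126, 0.0977 and 0.0565 CPM in WT and 0.641, 1.11 and 0.767 CPM in GLI2 KO. The trefoil factor genes TFF3, TFF2 and TFF1 next to the sterol transporter ABCG1 had a median of 1.89, and CPE, LINC01179, TLL1 and SPOCK3 on chromosome 4 a median of 1.77. In 23 adjacent pairs the 2 genes differed in opposite directions, as SMIM31 and TRIM61 did.

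Most of the single-gene calls recurred in the paclitaxel libraries. Of the 816 rises, 602 (73.8%) were called higher there, where 23.4% of all genes tested were, and 11 were called lower. Of the 504 falls, 378 (75%) were called lower, against 22.2% of all genes, and 4 higher. The median difference was 1.86 in DMSO and 1.16 in paclitaxel for the rises, and -1.54 and -0.97 for the falls. The DMSO medians include the choice of large differences and the paclitaxel medians do not. Both comparisons use the same 2 cell populations and 1 shared estimate of the spread.

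GLI proteins bind DNA at a 9-base consensus, and the promoters of the single-gene differences were searched for it. The letters searched were GACCACCCA and their reverse complement TGGGTGGTC, without mismatches and on both strands, in the window from 250 bases before to 50 after the RefSeq start of each gene. Of 13024 tested genes with a promoter sequence, 30 (0.230%) held a match. Matches were in 2 of 527 single-gene rises (0.380%), in 0 of 286 single-gene falls and in 1 of 758 neighbour-shared genes (0.132%). The 2 rises were PLCH2, a phospholipase C, at 0.998 CPM in WT and 2.86 CPM in GLI2 KO (log2 difference 1.52, adjusted p = 8.82e-09), and LPAR3, a lysophosphatidic acid receptor at 0.0111 and 0.0544 CPM. PLCH2 lies near the start of the first chromosome 1 block, where its local median was 0.42. The better-expressed genes on either side of it, PEX10 and PANK4, were at 0.81 and 1.19. LPAR3 lies within the span of the second chromosome 1 block, so neither rise was clear of a higher block. Both genes are on chromosome 1, on the plus and the minus strand, and are shown because no other single-gene difference held the letters. The parts of their promoters around the match, from RefSeq on GRCh38.p14, at chr1:2467201-2467270 and chr1:84893359-84893456, read in the direction of the gene with the match in capitals:
PLCH2: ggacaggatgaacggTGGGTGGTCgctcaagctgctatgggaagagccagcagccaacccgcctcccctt
LPAR3: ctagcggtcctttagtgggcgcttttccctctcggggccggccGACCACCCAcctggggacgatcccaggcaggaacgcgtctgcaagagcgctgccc
A match of letters is a description and not a binding site, and most genes of the comparison had none in this window.

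The pathway of the targeted gene did not stand out as a group. Of 27 Hedgehog components tested, 7 (25.9%) were higher, 7 (25.9%) lower and 13 did not pass, with a median of -0.06. These shares are near the 22% higher and 19.6% lower of all genes tested. Of the 7 higher ones, the co-receptor CDON (0.55 ± 0.04), the ciliary protein EVC (0.35 ± 0.04) and the kinase subunit PRKACB (0.43 ± 0.05), lay in blocks and were within 0.5 of their local medians. HHIP, a decoy receptor and Hedgehog target, was at 0.985, 0.855 and 0.734 CPM in WT and 1.46, 1.68 and 1.53 CPM in GLI2 KO (0.85 ± 0.17), without overlap. GPR161, a ciliary receptor that holds the pathway down, fell from 34.6 to 24.5 CPM (-0.50 ± 0.04), and GLI3, the GLI protein that acts mainly as a repressor, from 31.8 to 26.8 CPM (-0.25 ± 0.04). The classic readout GLI1 was at 0.222, 0.330 and 0.169 CPM in WT and 0.179, 0.249 and 0.30 CPM in GLI2 KO (0.04 ± 0.30, adjusted p = 0.937) and the receptor PTCH1 at 14.3 and 13.5 CPM (-0.09 ± 0.06, adjusted p = 0.241). GLI1 was under 1 CPM in every library.

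Genes reported as GLI targets divided into 9 higher (40.9%), 5 lower (22.7%) and 8 that did not pass of 22 tested (median 0.13). The shares over all genes tested were 22% and 19.6%. CCND2, a D-type cyclin, was at 0.377, 0.403 and 0.395 CPM in WT and 0.0513, 0.0794 and 0.0222 CPM in GLI2 KO (-2.91 ± 0.34), with all GLI2 KO values below WT. In paclitaxel it was at -0.39. IGFBP6, a binding protein for insulin-like growth factors, was at 11.3, 12.7 and 10.6 CPM in WT and 5.23, 6.21 and 6.13 CPM in GLI2 KO (-0.97 ± 0.07), again without overlap. CXCR4, the chemokine receptor linked to homing to bone marrow, rose from 0.968 to 2.49 CPM (1.36 ± 0.12) inside the first chromosome 2 block, whose genes were lower. PTHLH itself was at 0.637, 0.366 and 0.463 CPM in WT and 0.692, 0.624 and 0.589 CPM in GLI2 KO, a log2 difference of 0.35 ± 0.21 (adjusted p = 0.190).

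Factors of bone metastasis and osteolysis were mostly higher. Of 25 tested, 15 (60%) passed higher and 4 (16%) lower, where 22% and 19.6% of all genes tested did. Their median was 0.57 both against WT and relative to neighbours. SPARC, a matrix protein of bone, was at 4.96, 4.76 and 4.45 CPM in WT and 17.5, 16.8 and 14.1 CPM in GLI2 KO (1.77 ± 0.08). The groups lay well apart. ADAMTS1, a protease reported in osteolytic metastasis, rose from 32.9 to 90.7 CPM (1.46 ± 0.21), CSF1, a growth factor of osteoclast precursors, from 39.8 to 60.5 CPM (0.61 ± 0.11), and TNFRSF11B, the decoy receptor osteoprotegerin, from 2.77 to 5.80 CPM (1.07 ± 0.10). BMP2, a bone morphogenetic protein, was at 0.464, 0.489 and 0.576 CPM in WT and 2.13, 2.30 and 2.33 CPM in GLI2 KO (2.15 ± 0.12), inside the lower chromosome 20 block. CDH11, the osteoblast cadherin, had 2 counts in WT and 47 in GLI2 KO (ratio 24.7, interval 6.46 to 210). Falls included HPSE, heparanase (-0.83 ± 0.06), CCN2, connective tissue growth factor (-0.30 ± 0.07), and the chemokine CXCL8. CXCL8 was at 10.3, 5.20 and 8.76 CPM in WT and 2.81, 3.22 and 1.47 CPM in GLI2 KO (-1.71 ± 0.45, adjusted p = 0.0144), and its adjusted p was 0.0570 without GLI2 KO replicate 3 and 0.0530 without WT replicate 1.

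Related lists on matrix and cell identity leaned the same way in counts of genes that passed. The lists share members, so their leans are not independent. Their counts stand against 22% higher and 19.6% lower over all genes tested. Of the bone metastasis factors, CDH11 is also a listed mesenchymal marker, MMP1 a listed protease and BMP2 a listed TGF-beta and BMP gene. Mesenchymal markers were higher in 11 of 17 and lower in 3 (median 0.44), extracellular proteases and their inhibitors higher in 14 of 26 and lower in 2 (0.22), TGF-beta and BMP genes higher in 14 of 31 and lower in 5 (0.10), and keratins and basal markers higher in 7 of 12 and lower in 1 (0.37). The same population also had 9 of 24 epithelial junction genes higher and 1 lower (0.07), and 8 of 15 luminal and hormone receptor genes higher and 4 lower (0.55). PRRX1, a mesenchymal transcription factor, was at 0.0579, 0.0733 and 0.147 CPM in WT and 0.872, 0.862 and 0.90 CPM in GLI2 KO (3.24 ± 0.28) and FN1, fibronectin, at 351, 383 and 370.2 CPM in WT and 483, 479 and 534 CPM in GLI2 KO (0.44 ± 0.04). ZEB2, a repressor of epithelial genes, fell from 18.6 to 12.5 CPM (-0.58 ± 0.05). On the epithelial side, ESRP1, an epithelial splicing factor, rose from 0.412 to 1.94 CPM (2.22 ± 0.15) and CLDN1, a tight-junction protein, from 1.99 to 6.05 CPM (1.62 ± 0.09). The luminal factor SPDEF rose from 7.17 to 21.2 CPM (1.56 ± 0.19). LTBP1, which stores latent TGF-beta in the matrix, rose by 1.80 ± 0.14 and PMEPA1, a TGF-beta target that dampens its signalling, fell by 2.07 on the log2 scale. The third GLI2 KO library was the highest for LTBP1 too, at 63.1 CPM against 44.8 and 42.8 CPM. Collagens and laminins (9 higher, 10 lower of 28) and integrins (7 higher, 6 lower of 18) went both ways. COL12A1, a fibril-associated collagen, was at 49.2, 49.4 and 48.9 CPM in WT and 143, 147 and 145 CPM in GLI2 KO (1.56 ± 0.03). ITGA10, a collagen-binding integrin, rose by 2.52 ± 0.27, with 16.3, 16.2 and 30.5 CPM in the GLI2 KO libraries. ITGB4, the hemidesmosomal integrin, fell by 1.63.

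Lipid synthesis genes were higher by modest amounts. Of 24 genes of cholesterol biosynthesis and its control, 15 (62.5%) were higher and 1 (4.17%) lower (median 0.19). Of 23 genes of fatty acid synthesis and desaturation, 14 (60.9%) were higher and 4 (17.4%) lower (0.29). The shares over all genes tested were 22% and 19.6%. FASN, fatty acid synthase, was at 1812, 1938 and 1831 CPM in WT and 2915, 2826 and 3517 CPM in GLI2 KO (0.73 ± 0.08). SCD, the main desaturase, was at 1793, 1922 and 1838 CPM in WT and 2656, 2588 and 3161 CPM in GLI2 KO (0.60 ± 0.07), and INSIG1, the sterol sensor's partner, at 319.8, 316 and 337 CPM in WT and 605, 569.8 and 695 CPM in GLI2 KO (0.94 ± 0.07). The 2 genotypes did not overlap for these 3 genes. SREBF1, which encodes their activator, rose from 89.4 to 163 CPM, a difference of 0.86 ± 0.07 against a local median of 0.25 in the chromosome 17 block. The lower gene of the first list was PMVK (-0.27 ± 0.05). Only 1 of the 15 and 1 of the 14 rises were within 0.5 of the level of a block they lay in.

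NRF2-regulated antioxidant genes were mostly lower: 16 of 28 (57.1%) were lower, 3 (10.7%) higher and 9 did not pass (median -0.27). Among all genes tested, 19.6% were lower and 22% higher. NQO1, a quinone reductase, was at 817, 840.1 and 775 CPM in WT and 339, 377 and 369.8 CPM in GLI2 KO (-1.16 ± 0.05), with no overlap. FTL, ferritin light chain, fell from 5105 to 2854 CPM (-0.84 ± 0.07), the thioredoxin reductase TXNRD1 from 1171 to 844 CPM (-0.47 ± 0.06), the cystine transporter SLC7A11 from 427 to 307 CPM (-0.48 ± 0.07), and OSGIN1 from 16.3 to 8.27 CPM (-0.98 ± 0.10). Of the 16, 2 were within 0.5 of a lower block's level, and NFE2L2, described above, is a member of the list. PGD, 1 of the 3 higher genes, was within the range of its chromosome 1 neighbours. KEAP1, the inhibitor of NRF2, was also lower (-0.37 ± 0.05).

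Hypoxia and glycolysis genes were higher in 21 of 36 (58.3%) and lower in 5 (13.9%), with a median of 0.22. The shares over all genes tested were 22% higher and 19.6% lower. Only 2 of the 21 lay in a block. GAPDH, a glycolytic dehydrogenase, was at 3901, 3737 and 3818 CPM in WT and 4754, 4622 and 4369 CPM in GLI2 KO (0.26 ± 0.04). The GLI2 KO values were the higher ones throughout. VEGFA, the vascular growth factor, rose from 56.5 to 96.4 CPM (0.77 ± 0.06), the hypoxia factor EPAS1 from 21.8 to 43.9 CPM (1.01 ± 0.14), and the glucose transporter SLC2A1 from 219 to 302 CPM (0.46 ± 0.03). CA12, a carbonic anhydrase, fell from 41.4 to 23.7 CPM (-0.80 ± 0.04). Genes of the p53 pathway (13 higher, 4 lower of 28, median 0.19) and of the unfolded protein response (10 higher, 3 lower of 22, median 0.14) had more rises than falls, and genes of the integrated stress response mostly did not pass (5 higher, 4 lower of 30).

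Cell-cycle genes had small median differences but more falls than rises. DNA replication and S-phase genes were lower in 17 of 42 (40.5%) and higher in 5 (11.9%), with a median of only -0.05. G2/M and mitosis genes were lower in 14 of 40 (35%) and higher in 4 (10%), also with a median of -0.05. Of all genes tested 19.6% were lower and 22% higher, and of the better-expressed genes used as neighbours 26.8% and 29.7%. CCNA2, the S and G2 cyclin, was at 154, 144 and 144 CPM in WT and 84.1, 85.2 and 78.7 CPM in GLI2 KO (-0.83 ± 0.04), and MAD2L1, a spindle checkpoint protein, at 121, 113 and 121 CPM in WT and 73.3, 73.2 and 66.4 CPM in GLI2 KO (-0.74 ± 0.04). These 2 had the largest changes among the G2/M genes that passed, followed by SPC25 (-0.52 ± 0.05). For all of them GLI2 KO was below WT in every library. MKI67, the proliferation marker, was at -0.01 ± 0.03 (adjusted p = 0.889). MCM6 and POLE2, the 2 largest falls of the S-phase list, were within 0.5 of the lower chromosome 2 and 14 blocks they lie in.

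Every listed cytosolic ribosomal protein gene that passed as higher lay in a block. Of the 48 on the list, 10 (20.8%) were lower, 33 did not pass and 5 (10.4%) were higher. Among all genes tested, 19.6% were lower and 22% higher. All 5 higher ones, RPL22, RPL30, RPS25, RPL5 and RPL8, were neighbour-shared genes of higher blocks. The list does not cover the whole family: RPS3A and RPL22L1, both lower as described above, are not on it. RPL5 was at 933, 859 and 908 CPM in WT and 1189, 1196 and 1093 CPM in GLI2 KO (0.37 ± 0.04) in the second chromosome 1 block. Outside the blocks no ribosomal protein gene of the list passed as higher, and RPL13, at -0.23 ± 0.04, was the largest fall among them. Nuclear genes of oxidative phosphorylation had 9 higher and 9 lower of 34, and 4 of the 9 higher ones (COX6C, SDHD, SDHB and CYC1) were neighbour-shared. Mitochondrially encoded genes had 3 higher and 3 lower of 13.

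Most of the remaining lists had no clear lean, against 22% higher and 19.6% lower over all genes tested. YAP and TAZ genes had more falls (34.5%) than rises (17.2%). Notch genes had 10 higher and 7 lower of 28, Wnt genes 12 and 8 of 35, YAP and TAZ genes 5 and 10 of 29, AP-1 and immediate early genes 5 and 8 of 32, NF-kB and inflammatory cytokine genes 6 and 8 of 26, interferon-stimulated genes 14 and 10 of 35, MHC class I genes 8 and 7 of 20, taxane transport and tubulin genes 6 and 7 of 28, and HOX genes 3 and 4 of 20. HEY2, a Notch-responsive repressor, was at 0.0483, 0.0611 and 0.0339 CPM in WT and 0.602, 0.431 and 0.589 CPM in GLI2 KO (3.47 ± 0.35), and the receptor NOTCH3 fell from 6.02 to 2.18 CPM (-1.46 ± 0.13). MX1, an interferon-induced antiviral GTPase, fell from 17.7 to 6.81 CPM (-1.38 ± 0.07), and HLA-B, a class I chain whose counts may be shared with close copies, by 0.58 on the log2 scale. TUBA1A, an alpha-tubulin, rose by 0.74 ± 0.04 and MAPT, the microtubule-binding tau, fell by 0.81. The markers of other cells were 3 higher and 0 lower of 6 for haematopoietic cells, 2 and 1 of 4 for fibroblasts and osteoblasts, 3 and 1 of 5 for endothelium and 1 and 0 of 2 for kidney and packaging cells. KDR, the VEGF receptor of endothelium, was the marker that fell in that list, at 2.25, 1.94 and 1.93 CPM in WT and 0.0641, 0.113 and 0.133 CPM in GLI2 KO (-4.26 ± 0.22).

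**Figure D5:**
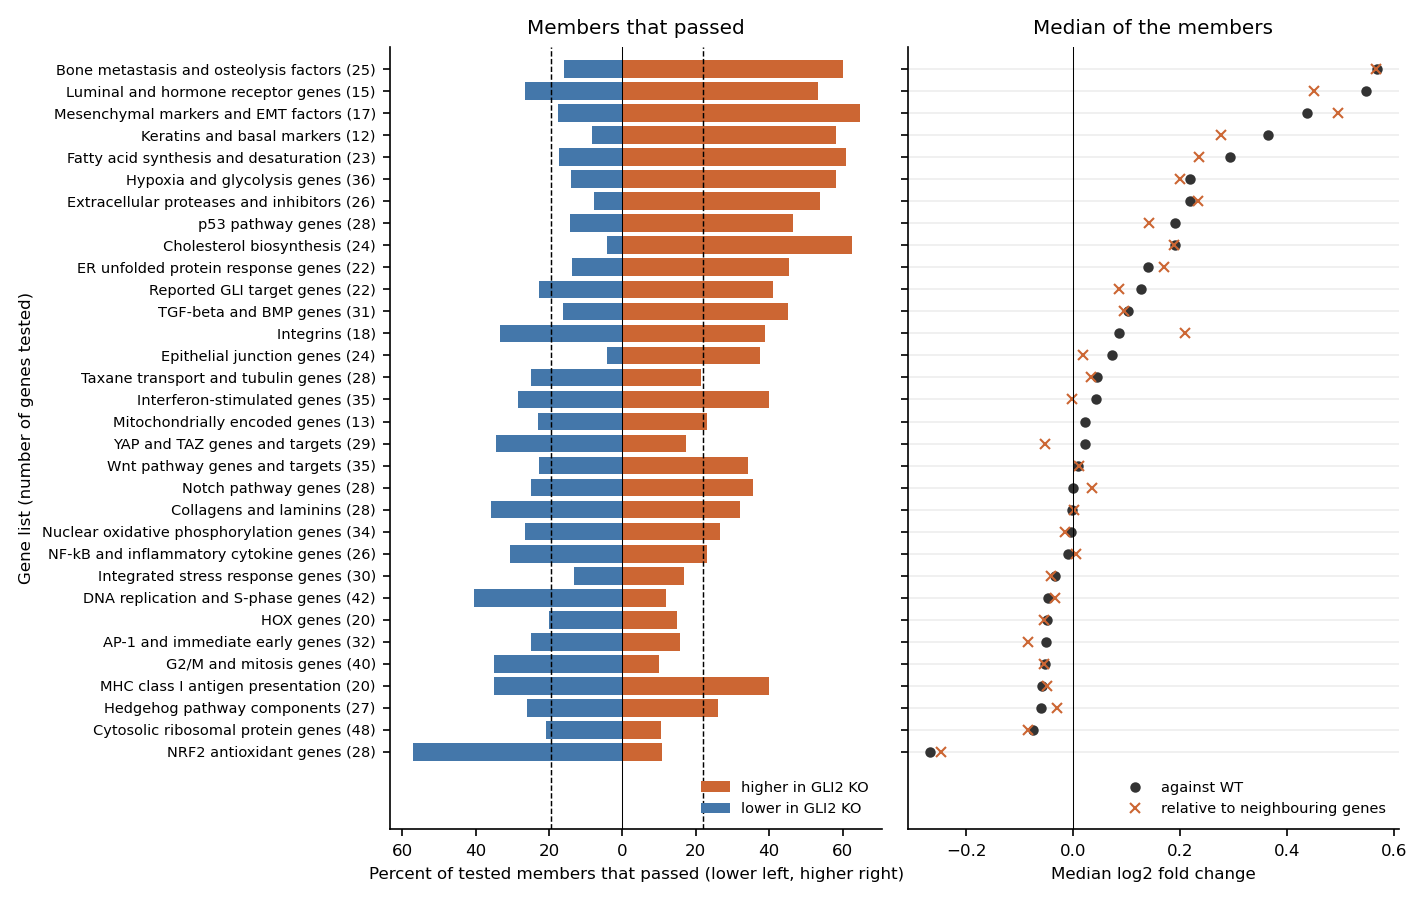
For each list with at least 10 tested genes, left, the percent of members that passed as higher (right of 0) or lower (left of 0) in GLI2 KO, with dashed lines at 22% and 19.6% for all genes tested; right, the median log2 fold change against WT (circles) and relative to neighbouring genes (crosses, not available for mitochondrial genes). NRF2 antioxidant genes have the lowest median, -0.27, and bone metastasis factors the highest, 0.57; circles and crosses lie close together for most lists.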

How the data were processed

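Polyadenylated RNA of 12 samples in 4 groups was sequenced, with RNA extracted in QIAzol and cDNA made with qScript supermix, per the labels. The authors deposited whole-number, unnormalised counts per gene for 25049 genes, which were used here; a second table of the same samples was not used. Per the submitters' processing notes, the tools were STAR, Trim Galore (0.6.7) and DESeq2 (1.36.0), on hg38. How reads were counted, with which annotation and with or without strand, is not given in the sources used. All 12 mapped columns were used, and 0 columns were left out.

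Counts were fitted with edgeR 4.0.16 in R 4.3.3 (glmQLFit and glmQLFTest, robust, TMM factors, filterByExpr at a minimum count of 10), with 1 mean per group over all 12 samples and 8 residual degrees of freedom. P-values are two-sided and adjusted by Benjamini-Hochberg over the 21974 genes left, and genes passed below 0.05. A value after ± is a standard error, computed as |log2 fold change|/√F. Levels are CPM with TMM scaling. Ratios for genes with at most 3 counts in a group use summed counts and library totals with an exact binomial 95% interval, and intervals and floors cover counting error only. Block levels used log2 CPM with a prior count of 2.

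Positions come from GENCODE 29 on GRCh38, or RefSeq for 206 genes, possibly not the annotation the authors counted on, and 94.3% of genes had one. Genes that overlap another may share counts. Groups were taken from titles, which give no replicate numbers, so replicates were numbered in accession order. Genes named are GLI2, the 12 largest single-gene rises and 12 largest falls relative to neighbours at 5 CPM or more with a symbol and replicates that did not overlap, the 4 most abundant genes of each of the 6 largest blocks, up to 3 passing genes per list of 36 lists with the largest change, up to 4 per direction with at most 3 counts in 1 group, and neighbours of the 2 largest rises and falls. Other list members and adjacent genes are named as examples after their values were seen, and some members are not reported here by name. Members, lists and rules were chosen with earlier results of these data known. The fit and the block search were tested on simulated data. Alternatives were other scaling factors, filters, DESeq2 1.42.0, the 6 DMSO samples alone, other block settings and leaving out each replicate.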

Additional observations from a re-analysis of the deposited data

Results flagged for a closer look

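The genotype difference of 49 named genes was not the same in DMSO and in paclitaxel: the difference of the 2 differences, paclitaxel minus DMSO on the log2 scale, passed edgeR's quasi-likelihood test at adjusted p-values up to 0.0409. Over all genes tested 2963 (13.5%) passed it. The 2 differences share no library, but the genes were named for their values in DMSO.

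Among genes higher in GLI2 KO in DMSO, the rise was smaller in paclitaxel for SESN3 (-1.39), SIGLEC15 (-0.71), TMEM132D-AS1 (-0.72), MAP2 (-1.20), DSC2 (-0.92), SH3BGRL2 (-0.50), FREM2 (-0.93), GBP2 (-1.03), FRY (-0.56), ENO1 (-0.19), APLP2 (-0.14), CDON (-0.21), S100A4 (-0.70), CLDN1 (-0.39), COL12A1 (-0.33), CSF2 (-1.09), IFI44L (-0.79), CCN1 (-0.48), TP73 (-0.71), TUBA1A (-0.22), NDUFA4 (-0.28), SMIM31 (-0.75). Among lower genes, the fall was smaller in paclitaxel for GPAT2 (0.38), L1CAM (1.26), ZNF727 (0.53), GALNT12 (0.80), PPP4R4 (0.77), RPL22L1 (0.68), MAP3K20 (0.26), CCND2 (2.53), PMEPA1 (1.06), ITGB4 (0.64), ITGAX (1.30), MX1 (0.48), KDR (2.57). KDR, for example, stood at -4.26 in DMSO and -1.69 in paclitaxel, and CCND2 at -2.91 and -0.39.

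The sign differed between the treatments for YWHAZ (-0.14), EGR3 (2.69), SLC7A11 (0.57), CD14 (-1.10), COL1A1 (0.50), SIX2 (-0.36), EPG5 (0.25), WIZ (0.23). Of these, YWHAZ and WIZ did not pass in DMSO, and SLC7A11 and CD14 did not pass in paclitaxel. EGR3, an immediate early transcription factor, stood at -1.57 in DMSO and 1.12 in paclitaxel. The difference was larger in paclitaxel for PNN (-0.35), F3 (-0.31), POLE2 (-0.25), VLDLR (0.50), CHAC1 (1.20), TPM4 (-0.17); CHAC1, a glutathione-degrading enzyme of the stress response, stood at 0.63 in DMSO and 1.84 in paclitaxel. No group had 4 or more samples, so single libraries were not tested as outliers.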

How the results depend on the processing

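Across other scaling, filters, DESeq2, the 6 DMSO samples alone and leaving out each replicate, 8070 to 9213 genes passed, and 46.4% (library totals) to 54.5% (without WT replicate 1) of them were higher, against 52.8%. Scaling moved the median of all genes by at most 0.03. Counts of single-gene rises and falls fell to 496 and 306 at a minimum count of 50, which tested 16198 genes. Genes in blocks numbered 1215 to 1941 under other neighbour settings and a threshold of 0.15, and 804 at 0.3, where 10 blocks were left. GLI2 ranged from -0.298 to -0.147 when 1 replicate was left out and lost its call 3 times, without GLI2 KO replicate 1 (-0.229), GLI2 KO replicate 2 (-0.147) and WT replicate 2 (-0.185). PIK3C3, not passing, changed sign with library totals (-0.0170) and upper-quartile factors (-0.0139) and ranged from -0.0129 to 0.0292 without 1 replicate, and TMEM123, not passing either, from -0.0180 to 0.0138. No paired analysis was possible because the labels give no replicate numbers shared between groups. With 2 to 3 libraries per group, small differences rest on the shared estimate of spread, and many single-gene differences rest on levels under 1 CPM.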

Other observations

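Below the length set for a block, 7 shorter runs of genes had local medians of at least 0.2 in size. The one with the most genes was chr13:18195297-24512810 on GRCh38, with 23 genes and a median of -0.25. Another on that chromosome, chr13:39655627-41961120, had 12 genes and a median of -0.20, so that with the 2 blocks chromosome 13 held 4 separate stretches of lower genes. All local medians on chromosome 13 lay between -0.27 and -0.11, and those on chromosome 14 between -0.50 and -0.08, so that no stretch of these 2 chromosomes had a local median above 0. The end of chromosome 2, chr2:241227264-242078722, had 11 genes with a median of -0.23.

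Among adjacent pairs of single-gene differences in opposite directions, chosen after their values were seen, GIMAP2, a lymphoid GTPase, stood at -3.48 beside NOS3, endothelial nitric oxide synthase, at 2.53. FAAH, which degrades the endocannabinoid anandamide, stood at -1.20 beside the homeobox gene DMBX1 at 3.19. TCF4, a basic helix-loop-helix factor, stood at 2.66 beside LINC01929 at -1.19.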
